A study of Mus musculus with 20 samples.

Results

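The core of the spliceosome was followed in the RNA of single mouse 8-cell embryos with and without maternal G9a, the H3K9 methyltransferase encoded by Ehmt2. Its genes were chosen by symbol, from name patterns for the Snrp and Snrnp proteins, the LSm proteins, SF3A and SF3B, the PRP factors, U2AF, Cdc5l, Eftud2, the Gemins and Smn1, without Snrpn. The patterns matched 64 of the 34937 genes counted in each embryo.

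The spliceosome removes introns from pre-mRNA and is assembled anew on each intron from small nuclear ribonucleoproteins (snRNPs), each a small RNA wrapped in a ring of Sm or LSm proteins. U1 marks the 5′ splice site, U2 with SF3A, SF3B and U2AF marks the branch point and the 3′ splice site, and the U4/U6.U5 tri-snRNP with the PRP19 complex brings in the parts that form the catalytic centre. A minor spliceosome with U11 and U12 handles a small class of introns. The SMN complex loads Sm rings onto newly exported small nuclear RNAs in the cytoplasm. In the cleavage embryo the machinery inherited from the oocyte is gradually replaced by the products of the activated zygotic genome.

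RNA was measured in 9 Ehmt2Cntr and 10 Ehmt2Mat embryos, each a single embryo freed of its zona and collected at E2.5 with normal morphology. The mothers of Ehmt2Cntr embryos were Ehmt2F/+ and those of Ehmt2Mat embryos were Ehmt2F/-. Both kinds of mother carried Zp3-Cre, active in growing oocytes, and both were crossed with Ehmt2+/- males on a mixed genetic background. Among the controls, 3 embryos were zygotically Ehmt2+/- and 6 were Ehmt2+/+, and among the Ehmt2Mat embryos 5 had a paternal functional copy (Ehmt2M/+) and 5 had none (Ehmt2M/Z). The mother and litter of each embryo were not given, so that maternal genotype and litter cannot be told apart, and the p-values measure the spread between these embryos. Control embryo 4 was not analysed here.

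Total counts lay between 12985149 and 30053248 in controls and between 8231646 and 30602434 in Ehmt2Mat embryos, so that 3 counts in 1 embryo corresponded to 0.098 to 0.364 CPM (counts scaled to the library size). More genes had a count in Ehmt2Mat embryos (12754 to 16412, median 14488) than in controls (12068 to 16142, median 12848). Control 10 stood apart with 16142 such genes, and control 9 had the lowest summed CPM of the spliceosome genes (5601). The part of the number of detected genes in the results was not tested, and fits without controls 9 and 10 are given with the calls. Ehmt2 itself ranged from 66.6 to 253 CPM in controls (median 133) and from 58.7 to 159 CPM in Ehmt2Mat embryos (median 94.9), with overlapping groups and no call (log2 fold change -0.47 ± 0.24 SE, adjusted p = 0.233). Transcripts that mark the preimplantation embryo summed to 2144 to 3508 CPM in controls and to 3389 to 4206 CPM in Ehmt2Mat embryos, with Dppa3 the main contributor (1764 CPM at the control median, 2411 CPM in Ehmt2Mat embryos, not called). Of the 8, Tead4, Tfap2c and Klf17 were called higher and 0 lower, and 4 had negative estimates that were not called (Tdgf1 -1.44, Zfp42 -0.74, Nanog -0.60 and Pou5f1 -0.18). Summed oocyte transcripts ranged from 56.1 to 354 CPM and from 125 to 398 CPM. Oosp1 was called higher (median 8.46 CPM in controls, 63 CPM in Ehmt2Mat embryos) and the other 7 were not called. Of these 7, Zp1 (-1.12), Bmp15 (-0.88), Zp3 (-0.46), H1foo (-0.25) and Gdf9 (-0.03) had negative estimates. Nlrp5 (0.38) and Zp2 (0.01) had positive ones. Of the 7 genes of the 2-cell stage that were found, Eif1a made up nearly all of the summed level (426 to 892 CPM in controls, 427 to 845 CPM in Ehmt2Mat embryos). The other 6 reached at most 11.8 CPM in any embryo (Zscan4d in a control), and 0 of the 2 tested (Eif1a and Tcstv1) were called. Zfp352, too low for the test, was above every control (at most 0.603 CPM) in 6 Ehmt2Mat embryos, at up to 8.48 CPM. Tcstv3, also too low, went the other way, with a median of 1.91 CPM in controls and 0 CPM in Ehmt2Mat embryos. Summed cumulus and granulosa markers reached at most 5.02 CPM in any embryo and sperm markers at most 1.23 CPM, with Ptx3, Amh, Foxl2, Has2, Fshr, Tnp1, Akap4, Odf1 and Tnp2 at 0 in all 19.

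Levels of different genes were compared as CPM per kilobase of exon, taken as the median over the 19 embryos. The most abundant spliceosome mRNA by this measure was Snrpb, the SmB protein of the Sm ring, at 265 CPM per kb, followed by Sf3b6, the SF3B subunit that contacts the branch point adenosine, at 149, and Snrpd1 (SmD1) at 113. Sf3b2 and Snrpb2 followed at 104 and 94.9 CPM per kb, and Lsm4, shared by the cytoplasmic and nuclear LSm rings, reached 90.2. The tri-snRNP proteins lay in a narrow band from 10.6 (Prpf31) to 42.9 CPM per kb (Prpf8, the scaffold of the catalytic centre). The LSm proteins were spread widely, from 0.186 (Lsm7) to the 90.2 CPM per kb of Lsm4. Lsm7 and the U1-associated Prpf40b were too low for the test, which left 62 genes. The cDNA was biased towards 3′ ends and exon length covers the whole gene model, so these levels rank genes only roughly.

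**Figure D1:**
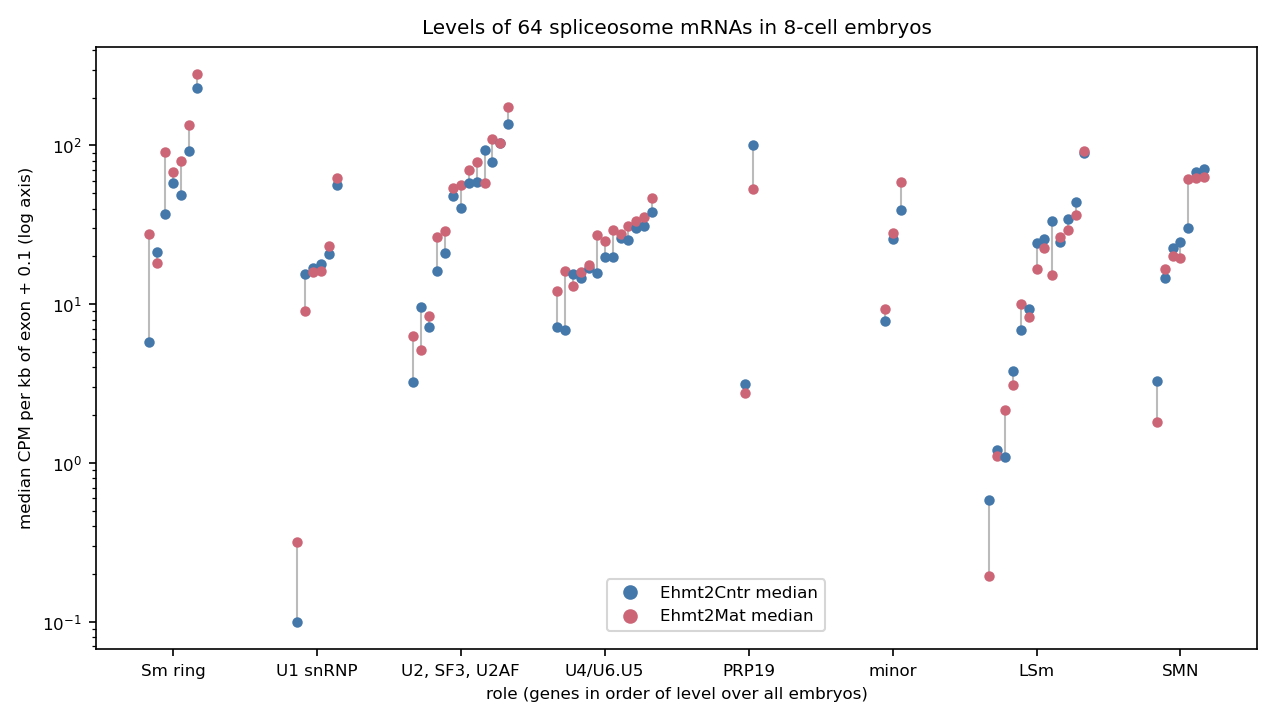
Median level of each of the 64 spliceosome mRNAs in Ehmt2Cntr (blue) and Ehmt2Mat (red) embryos, as CPM per kb of exon plus 0.1 on a log axis, grouped by role, with a line joining the medians of a gene. The tri-snRNP genes lie close together and the LSm genes are spread widely, and the blue and red points of Snrpd3 and Snrpe are far apart.

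Of the 62 tested spliceosome mRNAs, 7 were higher in Ehmt2Mat embryos (11.3%), where 4.37% of all 11754 tested genes were higher, and 4 were lower (6.45%), where 4.98% of all were lower. The higher mRNAs encode Sm proteins (Snrpd3, Snrpe, Snrpd1), tri-snRNP proteins (Prpf3, Prpf31, Prpf6) and the SMN complex subunit Gemin2. The lower mRNAs encode Sf3b1, Cdc5l, Lsm1 and Lsm2. The other 51 were not called by edgeR, although DESeq2, and edgeR on genes with 10 or more counts in all embryos, each called 4 of them higher (Snrpb2, Prpf38a, Sf3a1 and U2af1). Each library was made from a whole embryo and CPM is relative to its own total, so that for a lower value fewer cells of a type and less RNA per cell cannot be told apart. A positive log2 fold change was found for 40 of the 62 (64.5%) and for 47.6% of all genes, with a median of 0.15 against -0.04 over all genes. At an unadjusted p under 0.05 there were 20 of the 62 (32.3%) and 23.3% of all genes. The spliceosome mRNAs were also more abundant and less variable than the average gene, with a median control level of 80.2 CPM against 18.8 CPM and a median SD among controls of 0.50 against 0.82 on the log2(CPM + 1) scale. Complete separation of the groups occurred for 0 of the 62 and for 0.519% of all genes. In sum the 64 mRNAs took 7437 ± 1043.5 CPM in controls (SD, n = 9) and 7842 ± 791 CPM in Ehmt2Mat embryos (SD, n = 10), with overlapping ranges.

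The calls depended on the fit for some genes. Without controls 9 and 10, an alternative chosen after seeing the data, 5 spliceosome mRNAs were higher and 4 lower, with Prpf6 and Gemin2 lost. Among the fits that each left out 1 embryo, Snrpd3, Snrpe, Snrpd1, Prpf3, Prpf31, Gemin2 and Sf3b1 were called in all 19, whereas Cdc5l was called in 17, Lsm1 in 12, Lsm2 in 8 and Prpf6 in 5. Lsm1 lost its call without control 2, 5 or 8 or without Ehmt2Mat embryo 2, 4, 5 or 9 (highest adjusted p = 0.0642). Lsm2 lost it without control 1, 2, 3 or 5 or without Ehmt2Mat embryo 1, 2, 3, 4, 7, 8 or 9 (highest adjusted p = 0.0730). Prpf6 kept it only without control 5 or without Ehmt2Mat embryo 5, 6, 7 or 10, and its adjusted p reached 0.0903 without Ehmt2Mat embryo 3. In the zygotically Ehmt2+/- embryos alone, 3 controls against 5 Ehmt2Mat embryos, 0 spliceosome mRNAs were called by edgeR, 3 had an unadjusted p under 0.05, and 1 of all 13401 genes tested was called.

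**Figure D2:**
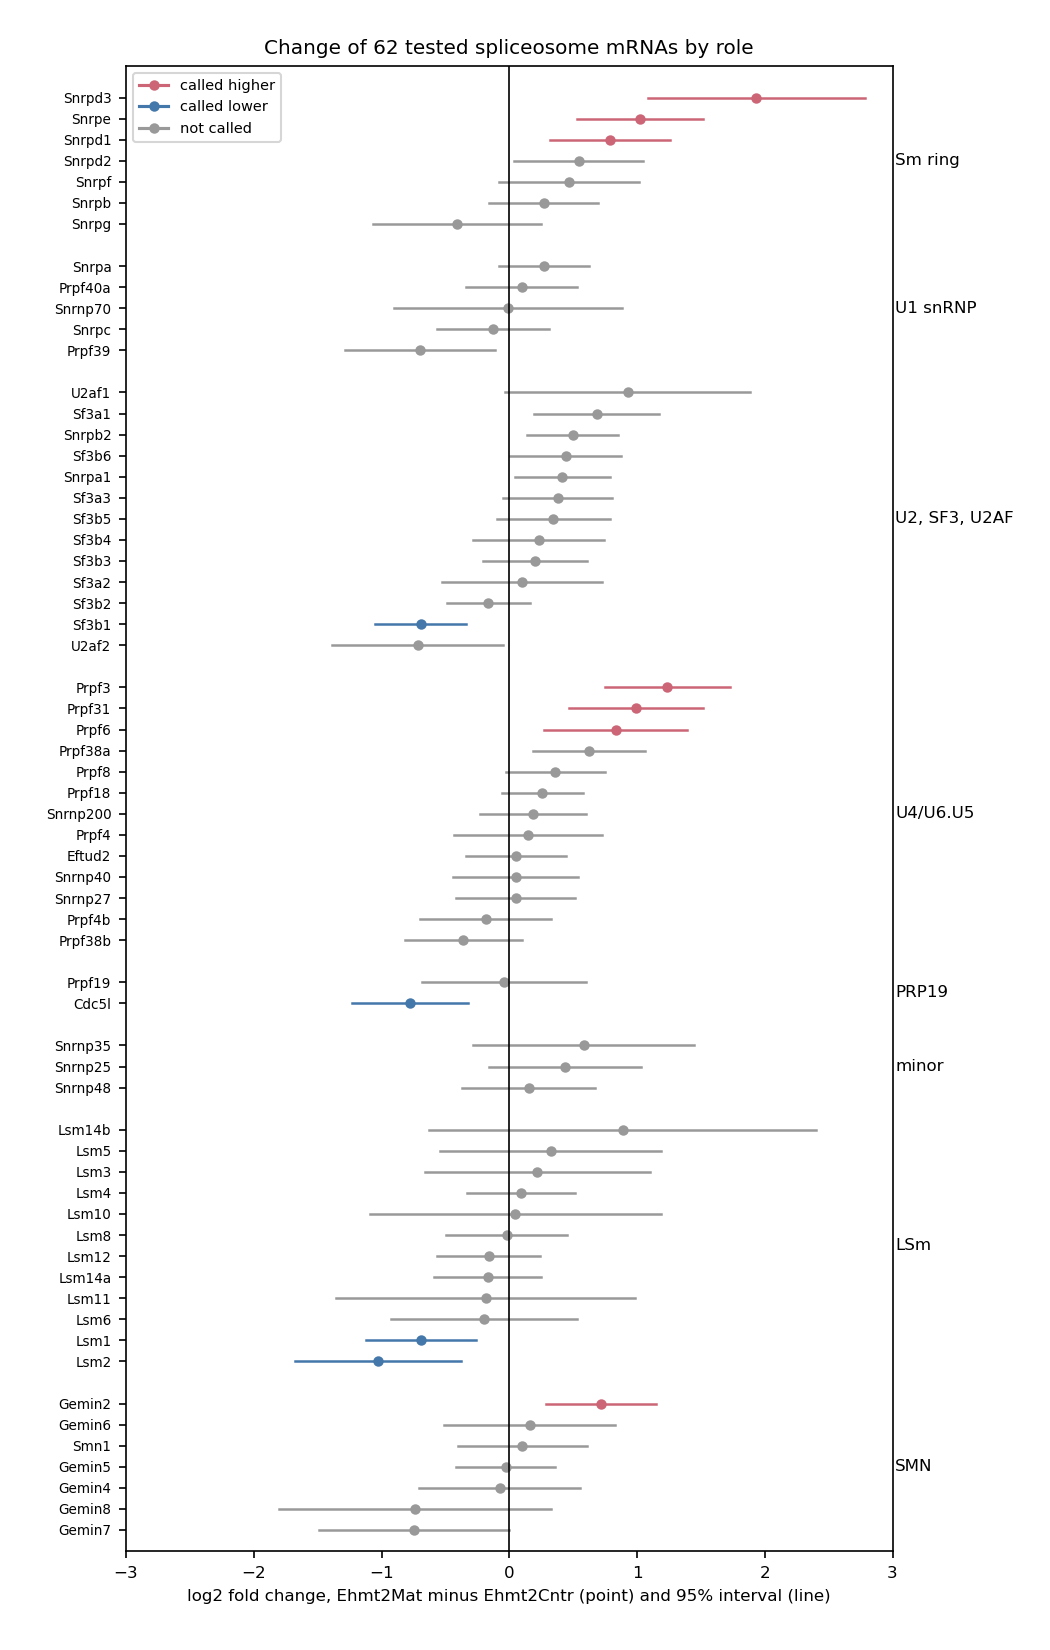
Log2 fold change of the 62 tested spliceosome mRNAs, Ehmt2Mat minus Ehmt2Cntr, from edgeR with 95% intervals, grouped by role. Genes called higher (red) sit in the Sm ring, U4/U6.U5 and SMN groups, genes called lower (blue) in the U2, PRP19 and LSm groups, and 51 were not called (grey).

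The Sm ring is the heptamer of B, D1, D2, D3, E, F and G proteins around the U1, U2, U4 and U5 RNAs. Its mRNAs had a median log2 fold change of 0.54, 3 of 7 were called higher and 0 lower. Snrpd3 (SmD3, chr10:75517551-75537373 in GRCm38) was at 10.4 CPM in the lowest control, 19.6 CPM at the median and 94.6 CPM in the highest, and at 42.1, 94.2 and 223 CPM in Ehmt2Mat embryos. All 10 Ehmt2Mat embryos were above the control median, but only 5 were above every control, since control 10 reached 94.6 CPM while the other controls stayed at or below 28.4 CPM. Its log2 fold change was 1.94 ± 0.40 SE (adjusted p = 0.00387), and 2.48 without control 10. In the zygotic Ehmt2+/- embryos alone, where control 10 was among the 3 controls, it was 0.83 (adjusted p = 0.927). Of its exon bases, 6.8% are shared with Gucd1.

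Snrpe (SmE, chr1:133603871-133610291) was at 47.8 to 95.3 CPM in controls (median 50.6) and at 49 to 185 CPM in Ehmt2Mat embryos (median 124). Apart from control 10 the controls lay within 65 CPM, and 7 Ehmt2Mat embryos were above every control while embryo 2 was below the control median. The log2 fold change was 1.02 ± 0.23 SE (adjusted p = 0.00717). Snrpd1 (SmD1) was at 33 to 98.6 CPM in controls (median 77.5) and at 74.9 to 177 CPM in Ehmt2Mat embryos (median 113), with 7 Ehmt2Mat embryos above every control and a log2 fold change of 0.79 ± 0.22 SE (adjusted p = 0.0267). Snrpb, at 175 to 617 CPM in controls and 379 to 826 CPM in Ehmt2Mat embryos, was not called (0.27 on the log2 scale, 95% interval -0.16 to 0.70). Among the uncalled Sm genes, Snrpg alone had a negative estimate (-0.41, interval -1.07 to 0.25). Snrpd2 (SmD2) was at 17.4 to 46.8 CPM in controls (median 30) and at 29.4 to 68.5 CPM in Ehmt2Mat embryos (median 48.5), and was not called (0.54, interval 0.04 to 1.05, adjusted p = 0.165). Exons of Snrpf are shared with other genes over 85.4% of their length, so its counts are uncertain.

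Among the 6 U1 genes, of which 5 were tested, 0 were called in either direction and the median log2 fold change was -0.01. Snrnp70 (U1-70K) and Snrpc (U1-C), which stabilise the pairing of U1 with the 5′ splice site, had estimates of -0.01 (interval -0.90 to 0.88) and -0.13 (interval -0.57 to 0.31). Snrpa (U1-A, which binds a stem-loop of U1 RNA) was the most abundant, at 62.6 to 123 CPM in controls (median 98.1) and 81.5 to 164 CPM in Ehmt2Mat embryos (median 110), with a log2 fold change of 0.27 (interval -0.08 to 0.62). Prpf39, a U1-associated PRP protein, had the smallest p in this group. It was at 49.9 to 128 CPM in controls and at 18.5 to 112 CPM in Ehmt2Mat embryos, of which 7 lay below every control while embryo 10 was near the top of the control range. Its log2 fold change was -0.70 ± 0.28 SE (adjusted p = 0.12), and without Ehmt2Mat embryo 10 it was called lower (-0.94, adjusted p = 0.0131).

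Of the 13 U2, SF3 and U2AF genes, 1 was lower and 0 were higher. The lower gene was Sf3b1 (chr1:54985169-55027481), the large SF3B subunit that clamps the branch point. It was at 804 to 1616 CPM in controls (median 1065) and at 449 to 923 CPM in Ehmt2Mat embryos (median 654). All 10 Ehmt2Mat embryos lay below the control median and 8 lay below every control. The log2 fold change was -0.69 ± 0.17 SE (adjusted p = 0.0108). Estimates for 10 of the other 12 genes were positive, and the median of the group was 0.34. Closest to the threshold were Sf3a1 (0.69, adjusted p = 0.0616) and Snrpb2 (0.50, adjusted p = 0.0618), an SF3A subunit and the U2-B″ protein, which DESeq2 called higher. Sf3b6 was at 83.6 to 229 CPM in controls and at 116 to 281 CPM in Ehmt2Mat embryos (0.44, adjusted p = 0.194). The U2AF subunits had estimates of opposite sign, neither called by edgeR. U2af1, which reads the AG of the 3′ splice site, was at 1.72 to 4.00 CPM in controls (median 3.07) and at 3.95 to 9.09 CPM in Ehmt2Mat embryos (median 6.07) (0.93, interval -0.03 to 1.89, adjusted p = 0.22), and both DESeq2 and the stricter count filter called it higher. Of its 50-base windows, 21.7% also occur in other genes. U2af2, which binds the polypyrimidine tract, was at 11.7 to 35.7 CPM in controls (median 21.6) and at 6.79 to 23.1 CPM in Ehmt2Mat embryos (median 11.5) (-0.71, interval -1.38 to -0.05, adjusted p = 0.169). The summed level of the group had nearly the same median in both kinds of embryo, 2739 CPM in controls and 2745 CPM in Ehmt2Mat embryos, with Sf3b1 the largest contributor.

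The tri-snRNP group of 13 genes had 3 called higher and 0 lower, with 11 positive estimates and a median of 0.19. Its summed level ranged from 1259 to 1952 CPM in controls (median 1398) and from 1550 to 2041 CPM in Ehmt2Mat embryos (median 1825). Prpf3 (chr3:95830124-95855885), which holds the U4/U6 duplex, was at 20.5 to 62.4 CPM in controls (median 38.4) and at 62.1 to 178 CPM in Ehmt2Mat embryos (median 90.6). The ranges met at the lowest Ehmt2Mat and the highest control embryo, and the other 9 Ehmt2Mat embryos were above every control. Its log2 fold change was 1.24 ± 0.23 SE, with the smallest adjusted p of the spliceosome genes (0.00182).

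Prpf31 (chr7:3629985-3642486), a U4 protein needed to join U4/U6 to U5, was at 19.9 to 59.5 CPM in controls (median 38.5) and at 43.6 to 134 CPM in Ehmt2Mat embryos (median 65.3). Here 7 Ehmt2Mat embryos exceeded every control, and the log2 fold change was 0.99 ± 0.25 SE (adjusted p = 0.0131). A share of 14.8% of its exon bases also belongs to Gm15927, and the counting recorded no strand. Prpf6 (chr2:181591868-181655660), which bridges U5 and U4/U6, was at 20.4 to 98 CPM in controls (median 60.2) and at 54.2 to 184 CPM in Ehmt2Mat embryos (median 104). Only Ehmt2Mat embryos 1, 2, 3, 4 and 9 lay above every control. The log2 fold change was 0.83 ± 0.27 SE (adjusted p = 0.0484), and it was 0.72 (adjusted p = 0.0624) without control 9, the lowest. Prpf8 was at 145 to 343 CPM in controls and at 171 to 468 CPM in Ehmt2Mat embryos, with 6 embryos above every control, and was not called (0.36, adjusted p = 0.236). Snrnp200, the helicase that unwinds U4/U6, and Eftud2, the U5 GTPase, had estimates of 0.19 (interval -0.23 to 0.60) and 0.05 (interval -0.34 to 0.44). Prpf38a was near the threshold (0.63, adjusted p = 0.0584), and DESeq2 called it higher.

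In the PRP19 complex, Cdc5l (chr17:45391892-45433707), a core subunit with Myb-like repeats, was at 141 to 399.8 CPM in controls (median 300.1) and at 99.6 to 214 CPM in Ehmt2Mat embryos (median 159). The 10 Ehmt2Mat embryos all lay below the control median, yet only 3 lay below every control, because controls 3 and 9 were at 141 and 142 CPM. The log2 fold change was -0.77 ± 0.21 SE (adjusted p = 0.0243), and the call was lost without control 5 or control 7 (adjusted p = 0.0506 and 0.052). Of the 50-base windows of Cdc5l transcripts, 36.6% also occur in other genes. Prpf19, the ubiquitin ligase of the complex, gave -0.04 (interval -0.68 to 0.60). The name patterns took only these 2 genes of the complex. Of its subunits outside the patterns, Plrg1 (0.93, adjusted p = 0.00994) and Ctnnbl1 (1.31, adjusted p = 0.00721) were called higher by edgeR. Bcas2 (-0.55) and Cwc15 (-0.06) were not called. The 3 minor spliceosome genes within the name patterns had positive estimates from 0.15 to 0.58 with 0 called. Of U11/U12 proteins outside the patterns, Zmat5 was called higher by edgeR (0.83, adjusted p = 0.00735). Rnpc3 (0.22), Pdcd7 (-0.11) and Zcrb1 (-0.79) were not called. Snrnp25 of the U11/U12 particle was at 28.5 to 89.6 CPM in controls and at 31.7 to 145 CPM in Ehmt2Mat embryos (0.44, adjusted p = 0.377).

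Of the 12 tested LSm genes, 2 were lower and 0 higher, and the group median was -0.09. Lsm1 (chr8:25785591-25803975) is the subunit particular to the cytoplasmic LSm ring, which acts in decapping and mRNA decay. It was at 43.4 to 84.9 CPM in controls (median 57.4) and at 27.2 to 53.7 CPM in Ehmt2Mat embryos (median 39.1), with 6 Ehmt2Mat embryos below every control. The log2 fold change was -0.69 ± 0.20 SE (adjusted p = 0.032). Lsm2 (chr17:34981862-34985891), common to the cytoplasmic ring and the U6 ring, was at 38 to 211 CPM in controls (median 106) and at 34 to 115 CPM in Ehmt2Mat embryos (median 47.8). After Snrpd3 it was the most dispersed of the called genes among controls, with an SD of 0.85 on the log2(CPM + 1) scale, and only 1 Ehmt2Mat embryo lay below every control, since control 10 was at 38 CPM. Its log2 fold change was -1.03 ± 0.31 SE (adjusted p = 0.0348). Lsm8, the subunit particular to the nuclear U6 ring, was at a median of 108 CPM in controls and 94.2 CPM in Ehmt2Mat embryos and was not called (-0.02, interval -0.49 to 0.45). Lsm4 was not called either (0.09, interval -0.33 to 0.51). Lsm10 and Lsm11, which replace D1 and D2 in the U7 snRNP of histone mRNA processing, had wide intervals (-1.09 to 1.18 and -1.36 to 0.99). The group also holds Lsm12, Lsm14a and Lsm14b, which are not ring subunits.

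The SMN complex had 1 of 7 genes higher and 0 lower, with a median of -0.03. The higher gene was Gemin2 (chr12:59013393-59028470), which clasps Sm proteins before the ring closes. It was at 60.4 to 140 CPM in controls (median 72.7) and at 66.9 to 187 CPM in Ehmt2Mat embryos (median 148), where embryo 2 alone lay below the control median and 6 lay above every control. Its log2 fold change was 0.72 ± 0.20 SE (adjusted p = 0.0261). Smn1, the central subunit, was at a median of 176 CPM in controls and 162 CPM in Ehmt2Mat embryos (0.10, interval -0.40 to 0.61). Gemin5, which recognises small nuclear RNAs, was at 295 to 608 CPM in controls and at 227 to 677 CPM in Ehmt2Mat embryos (-0.03, interval -0.41 to 0.36), and the sign of this estimate changed between settings. Gemin7 was at 11.1 to 92.6 CPM in controls (median 37.2) and at 8.36 to 43.1 CPM in Ehmt2Mat embryos (median 29.4) (-0.75, interval -1.49 to -0.0037, adjusted p = 0.201), and Gemin8, which joins Gemin7 to the complex, was at 3.71 to 11.7 CPM in controls (median 7.96) and at 0.727 to 9.76 CPM in Ehmt2Mat embryos (median 4.24) (-0.74, interval -1.80 to 0.33, adjusted p = 0.41), neither called by edgeR. Gemin4 shares 91.3% of its exon bases with other genes.

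**Figure D3:**
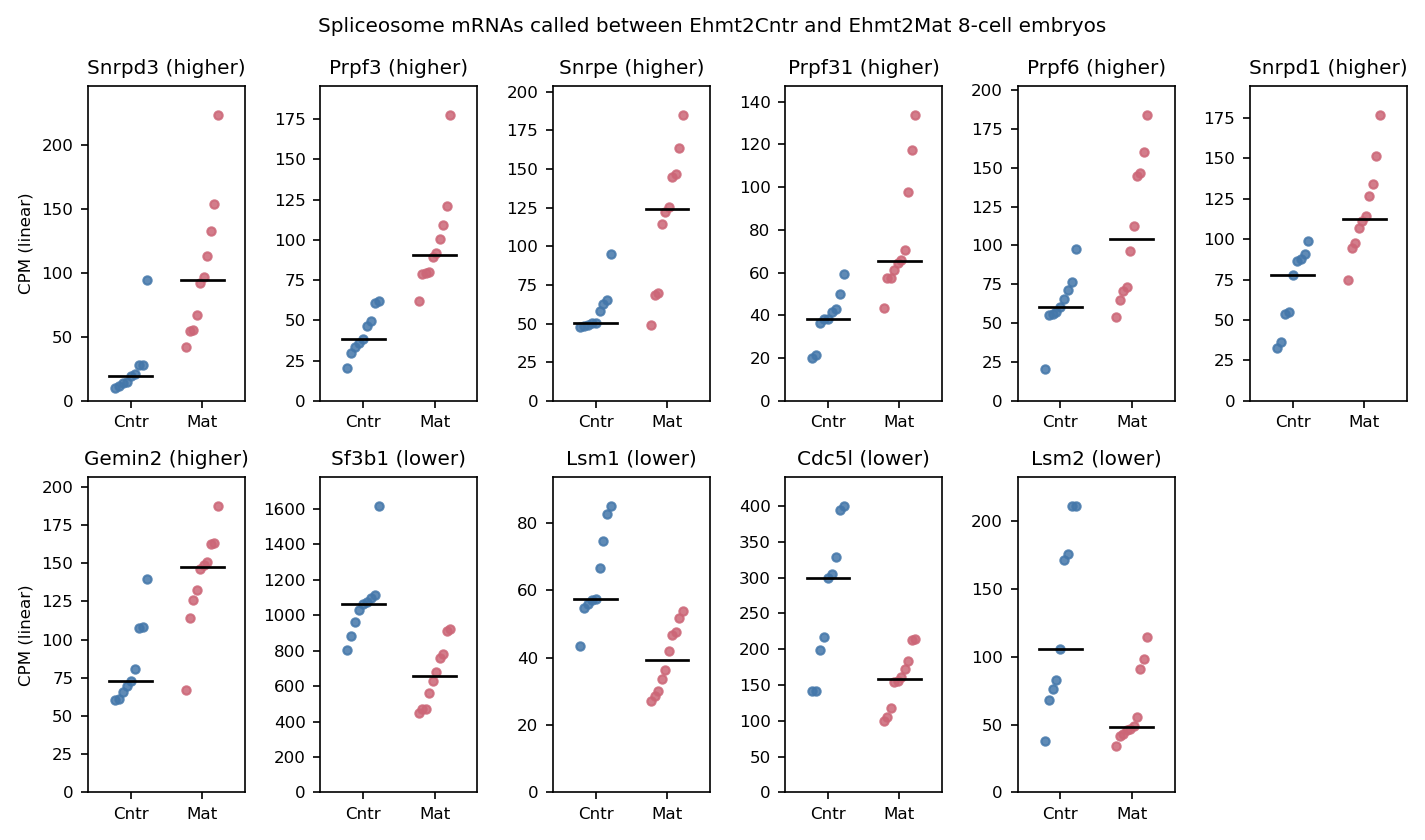
CPM in each of 9 Ehmt2Cntr (blue) and 10 Ehmt2Mat (red) embryos for the 11 called spliceosome mRNAs, on linear axes from 0, with the median as a black line. Snrpd3 and Snrpe each have 1 high control (embryo 10, at 94.6 and 95.3 CPM), and each gene has at least 1 embryo of either group inside the range of the other.

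Embryos were also compared over the 11 called genes together. Each control lay inside the Ehmt2Mat range, or beyond it on the Ehmt2Mat side, for 1 to 5 of the 7 higher genes, with the highest number in control 10. Conversely, Ehmt2Mat embryo 3 was above every control for all 7 of them, whereas embryos 2, 4, 8 and 10 overlapped the controls for 4. For the 4 lower genes, the controls reached the Ehmt2Mat range for 0 to 3, with control 9 at 3, and Ehmt2Mat embryo 10 overlapped the controls for all 4. Snrnp70, picked from the heat map after its values were seen, was at 60.7, 68.7 and 58.6 CPM in Ehmt2Mat embryos 1, 3 and 4. It was at 10.5, 14.1 and 14.4 CPM in embryos 5, 6 and 9, and the others lay between 17.5 and 36.9 CPM. Controls were spread as widely, from 11.4 to 84.8 CPM, with an SD of 0.99 on the log2(CPM + 1) scale against 0.97. The fold change of Snrnp70 (-0.01 ± 0.42 SE) does not show this spread inside both groups.

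**Figure D4:**
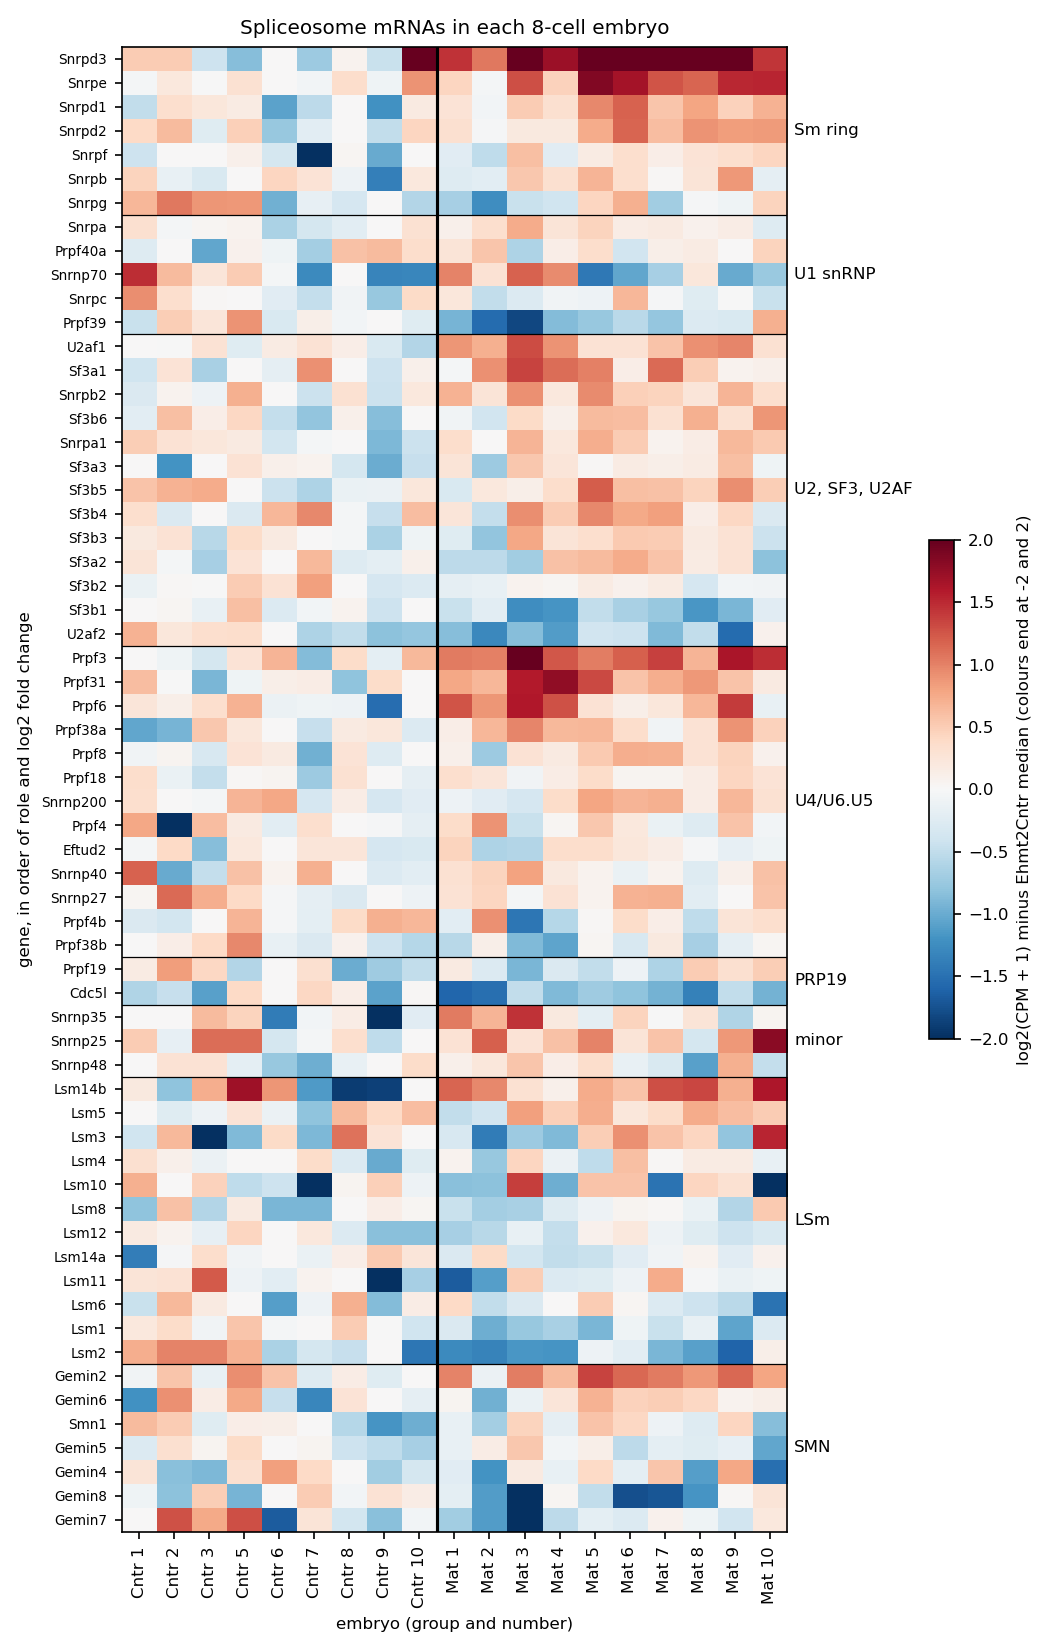
Log2(CPM + 1) of the 62 tested spliceosome mRNAs in each embryo minus the median of the 9 controls, with colours ending at -2 and 2. Rows for Snrpd3, Snrpe, Prpf3, Prpf31 and Gemin2 are red across most of the 10 Ehmt2Mat columns, those for Sf3b1, Cdc5l and Lsm1 are blue, and control 10 is red for Snrpd3 and Snrpe.

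The zygotic genotype was compared within each maternal genotype. Between Ehmt2M/Z and Ehmt2M/+ embryos (5 against 5) edgeR called 0 of 15224 genes (0%) and 0 of 63 spliceosome genes, of which Gemin4 alone had an unadjusted p under 0.05, as had 2.87% of all genes. DESeq2 called 15 genes there, 0 of them spliceosome genes. Between Ehmt2+/- and Ehmt2+/+ controls (3 against 6), 0 of 15224 were again called (0%), and 3 spliceosome genes (Snrpd3, Snrpc and Prpf40b) had an unadjusted p under 0.05, as had 10.4% of all genes, with 191 genes called by DESeq2 and 0 of these in the spliceosome. Control 10, far above the other controls for Snrpd3 (94.6 CPM), was among the Ehmt2+/- controls. Median Snrpd3 levels were 28.4 CPM in Ehmt2+/- and 16.9 CPM in Ehmt2+/+ controls, and 91.7 CPM in Ehmt2M/+ and 113 CPM in Ehmt2M/Z embryos. Snrpe medians were 50.1, 54.5, 125 and 122 CPM in the same order, and those of Prpf3 were 38.4, 41.4, 89.4 and 91.7 CPM. Sf3b1 stood at 1065, 1064, 679 and 630.1 CPM. For these 4 genes the medians of both Ehmt2Mat classes lay on the same side of both control classes. The 4 had been called between the maternal genotypes in these same embryos, so this is no separate test.

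Other splicing proteins were taken as a list of 67 genes outside the name patterns, of which 65 were tested. Of these 65, 13 were higher and 1 lower, where 4.37% and 4.98% of all 11754 tested genes were. Their median log2 fold change was 0.21, against -0.04 over all genes. The higher genes with the smallest adjusted p were Rnps1, an exon junction complex factor (40.9 CPM at the control median, 107 CPM in Ehmt2Mat embryos, 1.46 on the log2 scale, adjusted p = 0.000211), Sart1, a tri-snRNP protein (43.2 and 107 CPM, 1.38, adjusted p = 0.000922), and Magoh, of the exon junction core (198 and 362 CPM, 0.93, adjusted p = 0.00293). The lower gene was Snw1, a spliceosomal protein also known as a transcriptional co-regulator (68.8 and 34.5 CPM, -0.98, adjusted p = 0.0324). Of 17 factors of snRNP biogenesis, 2 were higher and 0 lower, with a median of 0.04. These were Snupn, the adaptor that returns capped snRNPs to the nucleus (123 and 237 CPM, 0.90, adjusted p = 0.00582), and Prmt5, which methylates Sm proteins (153 and 281 CPM, 0.78, adjusted p = 0.0248).

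Promoters of the spliceosome genes were read from RefSeq on GRCm38 to see what sequence they share that the name patterns did not use. Promoters were found for 52 of the 64 genes, Snrpd1 and Lsm1 not among them, and 250 bases before each start were searched on both strands for 5 short motifs, which may overlap each other. The ETS motif, searched only as the exact letters CCGGAAG, was found in 30.8% of the 52, in 6.9% of all 32851 promoters and in 14.5% of those of the genes tested here. The NRF1 palindrome, a GCGC and a TGCGC separated by any 1 base, occurred in 19.2%, 3.7% and 8.5% of these. The SP box GGGCGG occurred in 61.5%, 32.7% and 57.6%, CCAAT in 38.5%, 33.8% and 35.5%, and the YY1 motif GCCATNTT in 1.9%, 3.9% and 4.6%. The exact letters CCGGAAG were absent from the 250 bases of the 9 called genes with a promoter. Shorter or variant ETS sites were not searched. The NRF1 palindrome was found in 2 of the 6 higher genes, Prpf3 and Prpf6, and in 0 of the 3 lower ones. Shown are the 150 bases before the start of 4 higher genes, for contrast with 2 lower ones, on the strand of the gene, with the NRF1 match in capitals and everything else in lower case.
Prpf3: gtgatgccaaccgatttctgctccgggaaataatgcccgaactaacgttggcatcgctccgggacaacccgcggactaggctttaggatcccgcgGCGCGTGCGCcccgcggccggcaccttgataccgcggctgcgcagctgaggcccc
Prpf6: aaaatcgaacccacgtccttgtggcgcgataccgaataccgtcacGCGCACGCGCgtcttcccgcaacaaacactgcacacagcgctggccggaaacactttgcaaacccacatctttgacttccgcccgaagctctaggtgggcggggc
Gemin2: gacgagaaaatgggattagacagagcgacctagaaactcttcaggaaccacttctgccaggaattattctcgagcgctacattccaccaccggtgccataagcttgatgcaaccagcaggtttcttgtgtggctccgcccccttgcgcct
Snrpe: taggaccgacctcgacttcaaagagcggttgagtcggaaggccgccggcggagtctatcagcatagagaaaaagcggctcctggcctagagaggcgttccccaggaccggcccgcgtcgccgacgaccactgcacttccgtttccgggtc
Sf3b1: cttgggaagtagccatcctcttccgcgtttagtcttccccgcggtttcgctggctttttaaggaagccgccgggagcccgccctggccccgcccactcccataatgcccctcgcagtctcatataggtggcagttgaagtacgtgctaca
Cdc5l: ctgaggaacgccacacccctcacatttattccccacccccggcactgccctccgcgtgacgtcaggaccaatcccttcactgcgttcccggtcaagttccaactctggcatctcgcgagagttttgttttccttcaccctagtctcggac
These lie at chr3:95855886-95856035 (minus strand) for Prpf3, chr2:181601169-181601318 (plus) for Prpf6, chr12:59013241-59013390 (plus) for Gemin2, chr1:133610281-133610430 (minus) for Snrpe, chr1:55027479-55027628 (minus) for Sf3b1 and chr17:45433708-45433857 (minus) for Cdc5l. The Prpf3, Snrpe and Cdc5l windows touch exons of the lncRNA genes Gm26594, Gm26706 and B230354K17Rik on the other strand, and the RefSeq start of Prpf6 lies 9451 bases from the gene start in the counting annotation. Prpf3 and Gemin2, both higher, differ in base composition, with 19 and 7 CpG in the window, and Sf3b1 and Cdc5l, both lower, have 11 and 10. A motif match describes the letters of a window and does not show that a factor binds there.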

How the data were processed

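RNA-seq of single 8-cell embryos was taken as the raw counts of reads per gene that the authors deposited for 19 embryos. Per the file headers, featureCounts counted exons of Ensembl release 82 (GRCm38) without a strand option, with an overlap of at least 10 bases, for every gene overlapped and keeping multi-mapping reads. No aligner is named in the headers, and whether the alignment had already been limited to unique hits was not checked. The cDNA had been amplified with a 3′ bias. Embryos were grouped by maternal genotype from the labels. Low counts were removed with filterByExpr, and edgeR 4.0.16 (R 4.3.3) gave TMM scaling, the quasi-likelihood test and Benjamini-Hochberg adjustment over all genes (threshold 0.05). CPM used TMM-scaled library sizes, SE was the log2 fold change over the root of F, and 95% intervals used 17 degrees of freedom. The genes and lists were chosen with earlier results of these data known. Named were all called spliceosome genes, the most abundant (CPM per kb) and the smallest p of each role, and at most 3 genes per direction of other lists by adjusted p; other genes were named after their values were seen. Scripts were tested on simulated data with 200 genes changed. The main test recovered 13.6% of the changes of 1 on the log2 scale and 66.1% of those of 2. The changed genes were drawn from all tested genes, which were less abundant and more variable at the median than the spliceosome genes. They were also fewer than the 1099 genes called in the data. These shares are therefore no estimate for the spliceosome genes, and a gene that was not called may still differ. Tried as alternatives were DESeq2 1.42.0, upper-quartile and RLE scaling, other count filters, a replicate block, log2 total as a covariate, a fold threshold and embryos left out. Shared sequence was checked in GENCODE exons of the same build as 50-base windows. Intervals and floors cover counting error or embryo spread only.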

Additional observations from a re-analysis of the deposited data

Results flagged for a closer look

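In the 19 named spliceosome genes, 38 groups were searched for an embryo far from the others by Dixon's ratio on log2(CPM + 1), and 9 had one, where chance alone gives about 5% of groups. Control 10 was far above the other controls for Snrpd3 (94.6 CPM, nearest 28.4) and Snrpe (95.3 CPM, nearest 65). Control 9 was far below for Prpf6 (20.4 CPM, nearest 55.4), Snrpb (175 CPM, nearest 365) and Lsm4 (45.6 CPM, nearest 77). Control 5 was far above for Sf3b1 (1616 CPM, nearest 1116), and control 7 far below for Prpf8 (145 CPM, nearest 227). Among Ehmt2Mat embryos, embryo 2 was far below for Gemin2 (66.9 CPM, nearest 114) and Prpf8 (171 CPM, nearest 301).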

How the results depend on the processing

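The reported test gave 7 spliceosome genes higher and 4 lower. DESeq2 gave 11 and 4, as did at least 10 counts in every embryo, both adding Snrpb2, Prpf38a, Sf3a1 and U2af1. A fold threshold of 1 on the log2 scale left 3 and 1, and the zygotic Ehmt2+/- embryos alone left 0 and 0. Leaving out single embryos gave 6 to 8 higher and 1 to 5 lower: 2 without control 2 or Ehmt2Mat embryo 2, 4 or 9, 1 without control 5, and 5 without Ehmt2Mat embryo 10. The median log2 fold change then lay between 0.11 and 0.21. Under a replicate block on embryo number, 3 genes stayed higher (Snrpd3, Snrpe, Prpf3) and 1 lower (Sf3b1), and 693 genes were called of all. Deviations from the group means, on the log2(CPM + 1) scale, were correlated between same-numbered embryos. The correlations lay between -0.11 and 0.12 over 9 pairs, 2 of them over 0.1. The mean was 0.029, against -0.0033 for embryos of different number, and 1 control correlated best with its own number. These values cannot show whether same-numbered embryos shared a collection day or a library batch. Without the filter on low counts the median of all genes moved by 0.17 and Lsm1 was lost, and 54.8% of calls were higher. With log2 total as a covariate Prpf6 was lost. RLE kept all 11 calls, and upper-quartile scaling kept them and added Prpf38a. Of 532 values of named spliceosome genes under the alternatives, 466 stayed on their side of the threshold with the same sign, 56 lost the call, 1 gained it and 9 changed sign. The changes of sign were uncalled values: Snrpa (-0.0038, Ehmt2+/- embryos), Lsm4 (-0.023, without controls 9 and 10) and Gemin5 (0.0101 with upper-quartile scaling, 0.0042 without the filter, 0.12 in Ehmt2+/- embryos, 0.033 and 0.038 without control 2 or 5, 0.02 and 0.056 without Ehmt2Mat embryo 6 or 10, within a leave-one-out range of -0.12 to 0.056). The cause of these changes was not tested. Lsm7 (at most 14 counts in an embryo) and Prpf40b (0 counts in 10 of 19 embryos) did not pass the filter on low counts.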
